A study of Mus musculus with 4 samples.

Results

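The genes described here code for enzymes and regulators of purine, pyrimidine, deoxynucleotide, one-carbon and polyamine synthesis. They were taken from a list of 45 mouse symbols, and 44 of them appeared in the deposited table of regularised log (rlog) values, which holds 9546 symbols. The remaining one, Aldh1l2, a mitochondrial folate enzyme, had 0 counts in each library and was not tested. The 44 genes fell into 14 purine, 8 pyrimidine, 8 deoxynucleotide, 7 one-carbon and 7 polyamine genes. The list was set by gene name and not by a rule on any measured value, though earlier results of these data were known when it was chosen.

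Messenger RNA was counted in 4 libraries of splenic CD4+ T cells from Tg4 Nr4a3-Tocky Il10-EGFP mice. Their T cells express a transgenic receptor that recognises a peptide of myelin basic protein. Timer fluorescence in them reports Nr4a3, a gene switched on by receptor signals, and EGFP reports Il10. Both sorted populations came from mice that had received 4 mg/kg of the peptide [4Y]-MBP under the skin 24 h earlier. Both were gated on Timer, and they differed in Il10-EGFP, with 2 libraries for each population. The sample descriptions name 2 biological replicate mice per population and give neither age nor sex. Whether both populations were sorted from the same mice was not settled here. There was no unimmunised group among these libraries, so each value compares activated cells with activated cells.

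Resting T cells make few nucleotides and draw on salvage, whereas activated T cells that enter the cell cycle build purines and pyrimidines from small precursors. One-carbon units carried on folate supply carbons for the purine ring and for thymidylate, and the methionine cycle makes the methyl donor S-adenosylmethionine. Decarboxylated S-adenosylmethionine gives the aminopropyl groups of spermidine and spermine, which joins the polyamine step to the methionine cycle. Deoxynucleotide enzymes are known as S phase genes under E2F control, and many genes of the other steps are known as targets of MYC.

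The libraries held between 644679 and 730330 counts, which is shallow, and 9608 genes reached 10 counts in total and entered the test. Counts came from a 3′ end method in which a transcript yields reads near its end, so counts were not divided by transcript length. All adjusted p-values below, unless another tool is named, come from the quasi-likelihood test of edgeR, adjusted over all 9608 genes by the Benjamini-Hochberg method, and a gene was called at an adjusted p under 0.05. They measure the spread between these libraries alone. Levels are library-scaled counts (CPM with TMM factors), given as mean ± SD of n = 2 libraries, and log2 fold changes are Il10-EGFP+ over Il10-EGFP- with their standard error (SE). Counts are given for replicates 1 and 2 of Il10-EGFP- cells, against replicates 1 and 2 of Il10-EGFP+ cells. Il10, the gene whose reporter defined the sort, had 0 and 0 counts against 29 and 41 (adjusted p = 1.3e-08). Cd4 had between 149 and 209 counts per library, and of 7 T cell markers only Trac was called, higher (adjusted p = 0.00449, and 0.135 without Il10-EGFP+ replicate 2). The summed level of these 7 markers was 1574 and 1571 against 2070 and 2068 CPM, with no overlap. By contrast, the B cell gene Cd79a had 2, 0, 0 and 0 and the myeloid genes Cd14 and Adgre1 had 0 in each library. The summed level of 10 B cell markers was nevertheless 134 and 180 CPM against 520 and 563 CPM, and 5 of the 8 markers tested rose (Igkc, Ighm, Jchain, Cd22 and H2-Aa, with Cd22 lost at an adjusted p of 0.115 when Il10-EGFP- replicate 2, and of 0.0942 when Il10-EGFP+ replicate 2, was left out). The 10 myeloid markers summed to 105 and 136 against 376 and 198 CPM, where Lyz2 and S100a8 rose and both calls were lost without Il10-EGFP+ replicate 1 (adjusted p = 0.766 and 0.0687). Lyz2 also lost its call without either Il10-EGFP- library (adjusted p = 0.0728 and 0.150). The 8 CD8 or NK cell markers summed to 49.9 and 90.0 against 94.5 and 110 CPM, where Gzma alone was called (adjusted p = 0.0466), and its call was lost without Il10-EGFP- replicate 1 (0.413) or either Il10-EGFP+ library (0.186 and 0.116). Of the 5 CD8 or NK cell markers tested, 2 had a log2 fold change above 0 and 3 below, with a median of -0.08. The part of the transcripts of other cell types in the results below was not tested, and in sorted bulk RNA fewer cells of a type and less RNA per cell cannot be told apart.

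Of the 44 genes, 2 rose in Il10-EGFP+ T cells (Rrm2 and Tk1, both of the deoxynucleotide step) and 5 fell (Srm and Mtap of polyamine metabolism, Ppat of the purine, Ctps of the pyrimidine and Mat2a of the one-carbon step). Over all 9608 genes tested, 2.35 percent were called higher and 1.74 percent lower, 4.09 percent in all. The log2 fold change was below 0 for 32 of the 44 genes, and the median was -0.32, where the median over all genes tested was at 0 (2.5e-05). All 8 deoxynucleotide genes had a value above 0, with a median of 0.57. Of the 36 other genes, 32 had a value below 0, with a median of -0.41, and none of them was called higher. The groups did not overlap for 6 of the 44 genes that were higher and for 23 that were lower, where 22.3 percent of all genes tested did not overlap in each direction.

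**Figure D1:**
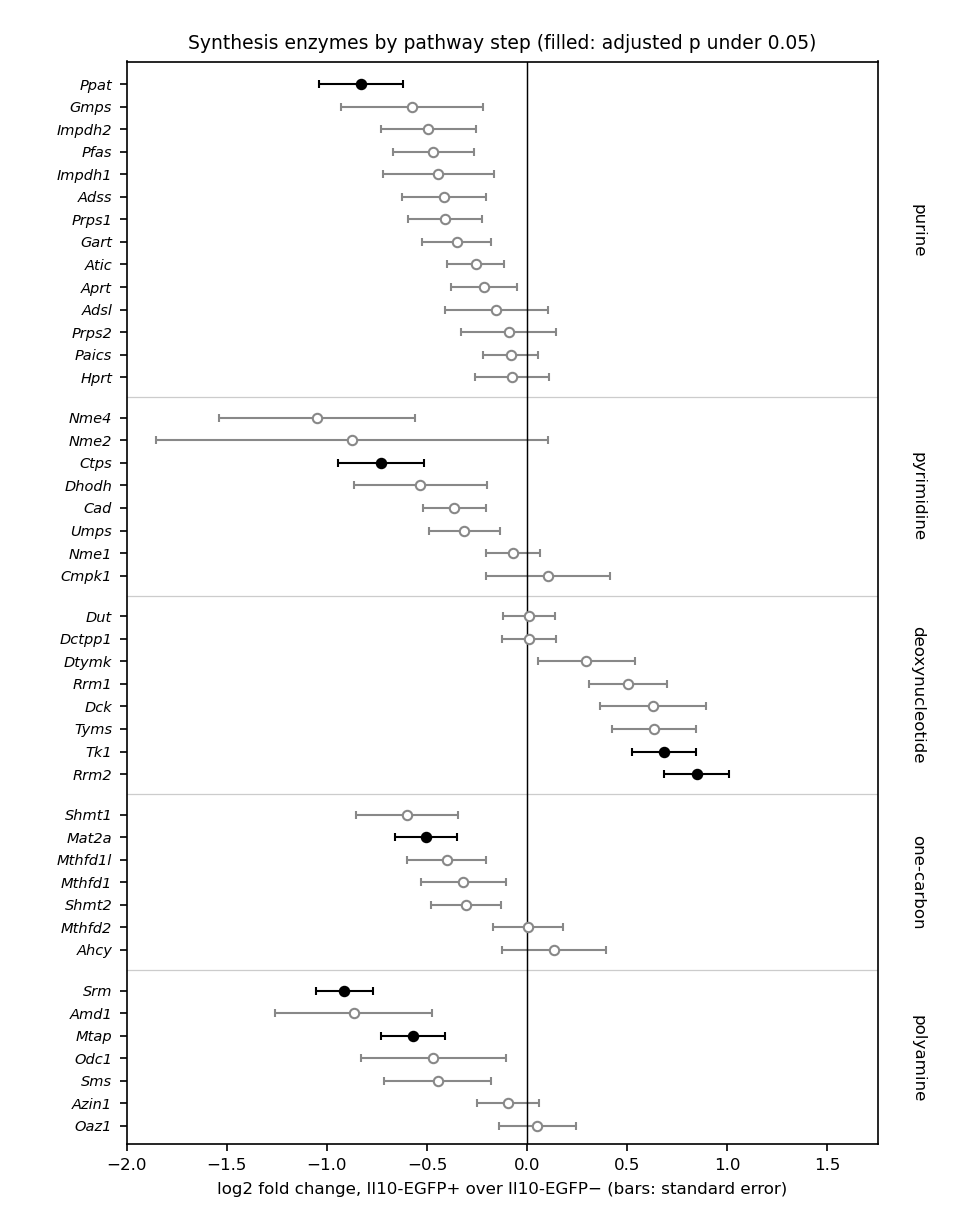
Log2 fold change (x axis) of the 44 tested synthesis genes (y axis), Il10-EGFP+ over Il10-EGFP-, grouped by step, with bars for the standard error and filled points for genes called at an adjusted p under 0.05. All 8 deoxynucleotide genes lie at or to the right of 0 and all 14 purine genes to the left.

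The steps also differed in their sums within each library. The 44 genes together took 0.940 and 0.935 percent of the counts in Il10-EGFP- against 0.813 and 0.816 percent in Il10-EGFP+ libraries. The deoxynucleotide genes made up 21.8 and 22.3 percent of these counts in Il10-EGFP- cells and 30.9 and 29.6 percent in Il10-EGFP+ cells. The polyamine genes gave 19.2 and 18.8 percent against 14.9 and 14.6 percent. The ratio of deoxynucleotide to polyamine counts, which does not depend on how the libraries are scaled, was 1.14 and 1.19 in Il10-EGFP- cells and 2.07 and 2.03 in Il10-EGFP+ cells. The ratio of deoxynucleotide to purine counts was 0.769 and 0.743 against 1.16 and 1.08. Neither ratio overlapped between the populations. With 2 libraries against 2, the smallest two-sided p of an exact permutation test is 0.333, so no single sum or ratio could pass a threshold of 0.05 on its own.

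Of the 8 listed deoxynucleotide genes, the 6 that make or salvage precursors of DNA had higher values in Il10-EGFP+ cells, and 2 of them were called. Those that clear unwanted deoxynucleotides were level. This split did not extend to 10 other deoxynucleotide genes tested, of which 5 lay above 0 and 5 below. Dctd (-0.81), Tk2 (-0.79) and Dguok (-0.67) were lower without being called. Samhd1, which breaks down deoxynucleotide triphosphates, was called higher. Rrm2 (ENSMUSG00000020649; chromosome 12 of GRCm38, 24708241 to 24714146) codes for the small, cell cycle regulated subunit of ribonucleotide reductase, which turns ribonucleotides into deoxyribonucleotides. It had 137 and 135 counts against 196 and 261. The populations did not overlap. Rrm2 rose from 190.4 ± 7.81 to 341.3 ± 46.3 CPM (SD, n = 2 each, log2 fold change 0.85, SE 0.16, adjusted p = 0.000466). The end of the Rrm2 transcript has up to 91 stretches of 50 bases in common with an annotated gene, Gm48445, and part of its reads may be missing from its count. Rrm1, the large subunit, had 91 and 75 counts against 105 and 114 (log2 fold change 0.50, SE 0.20, adjusted p = 0.150). The populations did not overlap for Rrm1 either, and the ratio of Rrm2 to Rrm1 counts was 1.51 and 1.80 against 1.87 and 2.29.

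Tk1 (ENSMUSG00000025574; chromosome 11, 117815526 to 117826092), the cytosolic thymidine kinase that salvages thymidine in cycling cells, had 155 and 167 counts against 258 and 223. Its level rose from 225.7 ± 23.5 to 362.9 ± 61.2 CPM (SD, n = 2 each, log2 fold change 0.68, SE 0.16, adjusted p = 0.00541). The call was lost without Il10-EGFP- replicate 1 (adjusted p = 0.0941), without Il10-EGFP+ replicate 1 (0.184) and with DESeq2's Wald test (0.0582, the highest of a range from 0.00101 over 10 other settings). Tyms, thymidylate synthase, had 64 and 69 counts against 83 and 110, with no overlap (log2 fold change 0.63, SE 0.21, adjusted p = 0.0750). It passed the threshold in a fit limited to genes with at least 10 counts in every library (adjusted p = 0.0438, in a range up to 0.422). Dck, the kinase for deoxycytidine and other deoxynucleosides, had 42 and 35 counts against 48 and 63, a log2 fold change of 0.63 (adjusted p = 0.212). Dtymk, which phosphorylates thymidylate, had 52 and 52 counts against 58 and 61, a log2 fold change of 0.30 (adjusted p = 0.632).

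The 2 deoxynucleotide genes with the most counts did not share this shift. Dut, the dUTPase that keeps uracil out of DNA, had 504 and 489 counts against 463 and 467, or 694.7 ± 20.9 and 699.1 ± 42.1 CPM (log2 fold change 0.01, SE 0.13, adjusted p = 0.983). Dctpp1, which hydrolyses dCTP and modified relatives, had 451 and 409 counts against 411 and 394, or 601.0 ± 10.6 and 605.9 ± 58.2 CPM, a log2 fold change also of 0.01 (SE 0.14, adjusted p = 0.983). For both the populations overlapped, and the sign of both differences turned under 3 of 15 alternative settings. The higher deoxynucleotide sum therefore came from the other 6 genes.

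**Figure D2:**
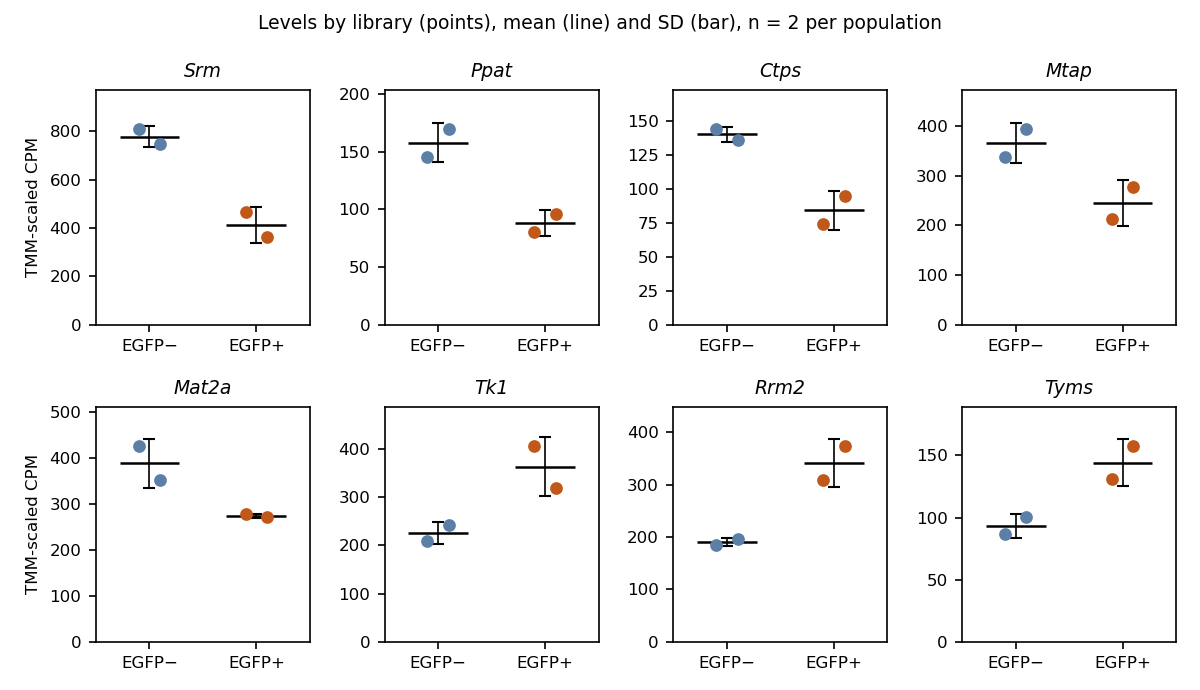
TMM-scaled CPM (y axis, from 0) of the 7 called synthesis genes and Tyms in Il10-EGFP- (blue) and Il10-EGFP+ (orange) T cells (x axis), where points are libraries, lines the mean of n = 2 and bars the SD. In each panel both libraries of one population lie on the same side of both libraries of the other, and Tyms did not pass the test (adjusted p = 0.0750).

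In the purine step, all 14 genes had a log2 fold change below 0, from -0.83 to -0.08 with a median of -0.38, and 1 fell. Ppat (ENSMUSG00000029246; chromosome 5, 76913249 to 76951578, minus strand) codes for the amidotransferase that commits phosphoribosyl pyrophosphate to the purine pathway. It had 108 and 117 counts against 51 and 67. The level fell from 157.7 ± 17.0 to 88.2 ± 11.1 CPM (SD, n = 2 each, log2 fold change -0.83, SE 0.21, adjusted p = 0.0109). Without Il10-EGFP- replicate 2 its adjusted p was 0.123, without Il10-EGFP+ replicate 1 it was 0.121, and DESeq2 gave 0.157, the highest of a range from 0.00537 over 10 other settings.

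The neighbour of Ppat on chromosome 5, Paics (76951307 to 76967509, plus strand), codes for the bifunctional enzyme that carries out later steps of the same pathway, and the annotations of the pair overlap head to head by 272 bases at their 5′ ends. Paics had the most counts of the purine step, 401 and 385 against 344 and 347, or 549.8 ± 12.4 and 519.4 ± 31.3 CPM, and its log2 fold change was -0.08 (SE 0.14, adjusted p = 0.867). The ratio of Ppat to Paics counts was 0.269 and 0.304 against 0.148 and 0.193, with no overlap. Atic, the enzyme of the last steps to inosine monophosphate, came next in counts with 318 and 308 against 230 and 258 (log2 fold change -0.26, SE 0.14, adjusted p = 0.408).

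The rest of the purine pathway gave smaller or less certain differences. Prps1 (-0.41) and Prps2 (-0.09), which make phosphoribosyl pyrophosphate, and Gart (-0.35), Pfas (-0.47) and Adsl (-0.15), which work between Ppat and inosine monophosphate, did not pass the test. The branch towards GMP held Impdh1 (-0.44), Impdh2 (-0.49) and Gmps (-0.58), and the branch towards AMP held Adss (-0.42), with adjusted p-values from 0.295 to 0.484. Impdh2 had 77 and 71 counts against 41 and 57, and its transcript end has up to 540 stretches of 50 bases in common with a pseudogene, Impdh2-ps, which had 2, 5, 3 and 8 counts. The end of Impdh2 also lies opposite Ndufaf3 (8 to 11 counts per library), and reads of the 2 strands cannot be told apart if the counting ignored strand. The salvage enzymes Hprt and Aprt had log2 fold changes of -0.08 and -0.22, with 125 and 123 against 110 and 109 counts for Hprt. In 9 of the 14 genes both Il10-EGFP+ libraries lay below both Il10-EGFP- libraries.

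In the pyrimidine step, 7 of 8 genes had a log2 fold change below 0, with a median of -0.45, and 1 fell. Ctps (ENSMUSG00000028633; chromosome 4, 120539868 to 120570276), the CTP synthase that proliferating lymphocytes are known to depend on, had 107 and 94 counts against 47 and 66. Its level fell from 140.4 ± 5.64 to 84.3 ± 14.6 CPM (SD, n = 2 each, log2 fold change -0.73, SE 0.22, adjusted p = 0.0385). The call held only when Il10-EGFP+ replicate 2 was left out (adjusted p = 0.0476) and was lost without Il10-EGFP- replicate 1 (0.182), Il10-EGFP- replicate 2 (0.0927) or Il10-EGFP+ replicate 1 (0.298). With DESeq2 the adjusted p was 0.305, at the top of a range from 0.0244.

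Cad, the trifunctional enzyme of the first steps of the pathway, had 254 and 248 counts against 200 and 162, or 351.3 ± 12.1 and 273.5 ± 58.5 CPM. Its log2 fold change was -0.36 (SE 0.16, adjusted p = 0.230), with no overlap between the populations. Umps (-0.31) and Dhodh (-0.53), which complete uridine monophosphate, did not overlap either and did not pass the test. Nme1, a nucleoside diphosphate kinase and the pyrimidine gene with the most counts, had 443 and 475 against 362 and 456 (log2 fold change -0.07, SE 0.14, adjusted p = 0.887). The gene with the largest difference of this step, the mitochondrial kinase Nme4, had 20 and 18 counts against 6 and 11, a log2 fold change of -1.05 with an SE of 0.49 (adjusted p = 0.273). Cmpk1, which phosphorylates UMP and CMP, had 33 and 34 against 36 and 31 counts. Nme2 had 5, 5, 1 and 4 counts, and its log2 fold change has an SE of 0.98. Of its 303 annotated end positions, 298 lie on the same strand in a read-through gene, Gm20390, to which Nme1 also belongs and which had 0 counts in each library.

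In the one-carbon step, 5 of the 7 tested genes had a log2 fold change below 0, with a median of -0.32, and 1 fell. Mat2a (ENSMUSG00000053907; chromosome 6, 72432799 to 72439558) codes for the catalytic subunit of the enzyme that makes S-adenosylmethionine outside the liver. It had 316 and 242 counts against 176 and 189. Mat2a fell from 388.7 ± 53.2 to 274.0 ± 4.39 CPM (SD, n = 2 each, log2 fold change -0.51, SE 0.15, adjusted p = 0.0441). This call had the highest adjusted p of the 7 with edgeR. It held only when Il10-EGFP- replicate 2 was left out (adjusted p = 0.0265), and the adjusted p was 0.402 without Il10-EGFP- replicate 1, 0.149 and 0.201 when Il10-EGFP+ replicates 1 and 2 were left out in turn. With limma on the rlog values it was 0.0510 and with DESeq2 0.220, in a range from 0.0201. The end of the Mat2a transcript has up to 82 stretches of 50 bases in common with a gene, Gm9523, that had 0 counts in each library.

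The folate enzymes gave mixed values. Shmt1, the cytosolic serine hydroxymethyltransferase, had 92 and 52 counts against 44 and 44, so the 2 Il10-EGFP- libraries differed widely from each other, and its log2 fold change was -0.60 (SE 0.25, adjusted p = 0.210). Its end lies opposite Smcr8, which had 7, 17, 12 and 7 counts. Shmt2, the mitochondrial form, had 161 and 139 against 108 and 118 counts (-0.30, adjusted p = 0.429). Mthfd2, a mitochondrial folate enzyme known to be induced when T cells are activated, had 207 and 136 counts against 136 and 184, or 238.3 ± 57.9 and 238.9 ± 35.1 CPM (adjusted p = 0.995), and its populations overlapped. Mthfd1 (-0.32) and Mthfd1l (-0.40), the cytosolic and mitochondrial formyl-tetrahydrofolate synthetases, did not pass the test. Ahcy, which clears S-adenosylhomocysteine, had 45 and 58 against 60 and 45 counts, and its end has up to 205 stretches of 50 bases in common with Gm4737, which had 1, 6, 2 and 3 counts.

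Of 15 other one-carbon genes tested, 2 were called, Slc19a1 and Fpgs, and both fell. Slc19a1, the reduced folate carrier, had 163 and 131 counts against 48 and 47. It fell from 205.0 ± 21.1 to 71.5 ± 5.80 CPM (SD, n = 2 each, log2 fold change -1.52, SE 0.21, adjusted p = 8.12e-07), and the call held without each library. Fpgs, which adds the glutamate tail that keeps folate inside cells, had 70 and 46 counts against 23 and 18. Its log2 fold change was -1.39 (SE 0.31, adjusted p = 0.00304), and the call was lost without Il10-EGFP- replicate 1 (adjusted p = 0.0996) or Il10-EGFP+ replicate 2 (0.0715) and with DESeq2 (0.0969, in a range from 0.00119). Both belong to a wider list of 82 other genes of these pathways, of which 60 were tested and 3 were called, where 4.09 percent of all genes tested were called.

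The third gene called in that list was Samhd1, the hydrolase that breaks down deoxynucleotide triphosphates and so opposes ribonucleotide reductase. It had 212 and 265 counts against 402 and 324, a rise of 0.71 on the log2 scale (SE 0.15, adjusted p = 0.00213). The call was lost without Il10-EGFP- replicate 1 (adjusted p = 0.103) or Il10-EGFP+ replicate 1 (0.169). The ratio of Samhd1 to Rrm1 counts was 2.33 and 3.53 against 3.83 and 2.84, and these overlapped. Over the 60 tested genes the median log2 fold change was -0.10, with 27 above and 33 below 0. By step, the called genes were 1 of 10 for deoxynucleotides, 2 of 15 for one-carbon metabolism, and 0 of 12 purine, 0 of 10 pyrimidine and 0 of 13 polyamine genes. Their medians in the same order were 0.06, -0.29, -0.23, 0.03 and 0.21. The lower medians of the listed pyrimidine and polyamine genes were thus not shared by these other genes.

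In the polyamine step, 6 of 7 genes had a log2 fold change below 0, with a median of -0.47, and 2 fell. Srm (ENSMUSG00000006442; chromosome 4, 148591503 to 148594993), spermidine synthase, had 600 and 514 counts against 296 and 252. Both Il10-EGFP+ values lay well below the lower Il10-EGFP- value. Srm fell from 777.6 ± 45 to 413.6 ± 74.1 CPM (SD, n = 2 each, log2 fold change -0.91, SE 0.14, adjusted p = 1.02e-05). Its annotated end shared no sequence of 50 bases with another gene. The polyamine step summed to 1775 and 1748 against 1231 and 1194 CPM, and Srm accounted for most of that difference. The ratio of Rrm2 to Srm counts was 0.228 and 0.263 against 0.662 and 1.04. These are the called synthesis genes with the largest rise and the largest fall, so the ratio restates their calls.

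Mtap (ENSMUSG00000062937; chromosome 4, 89137122 to 89181081), which recycles the methylthioadenosine that polyamine synthesis leaves over into adenine and a methionine precursor, had 250 and 272 counts against 135 and 194. Its level fell from 366.0 ± 40.6 to 245.3 ± 46.3 CPM (SD, n = 2 each, log2 fold change -0.57, SE 0.16, adjusted p = 0.0258). The call was lost without Il10-EGFP- replicate 2 (adjusted p = 0.221), without Il10-EGFP+ replicate 1 (0.352) and with DESeq2 (0.165, in a range from 0.00991).

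The regulated decarboxylases of the step were scarce in these libraries. Odc1, ornithine decarboxylase, had 37 and 26 counts against 28 and 14, with overlap (log2 fold change -0.47, SE 0.36, adjusted p = 0.601). Amd1, S-adenosylmethionine decarboxylase, had 28 and 27 against 13 and 15 counts (log2 fold change -0.87, SE 0.39, adjusted p = 0.259), and its end has up to 496 stretches of 50 bases in common with Amd2, which had 4, 1, 2 and 2 counts. Sms, spermine synthase, had 55 and 56 against 32 and 44 counts (-0.45, adjusted p = 0.451), and the ratio of Srm to Sms counts overlapped between the populations. Of the proteins that control Odc1, the antizyme Oaz1 had 111 and 102 against 109 and 96 counts (0.05, adjusted p = 0.944) and the antizyme inhibitor Azin1 had 235 and 208 against 169 and 218 (-0.09, adjusted p = 0.866). Both overlapped, and the end of Oaz1 has up to 298 stretches of 50 bases in common with a pseudogene, Oaz1-ps, with 0 counts in each library. Shorter overlaps of this kind were found for Sms (up to 192 stretches, with Sms-ps), Tyms (37, with Tyms-ps) and Paics (10, with Gm7838). Eif5a, the protein that carries the spermidine-derived residue hypusine, gave -0.41 on the log2 scale (adjusted p = 0.0641, the lowest over 10 other settings being 0.0281), and Dohh, which completes hypusine, gave -0.82 (adjusted p = 0.0709).

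Genes of cell division and known regulators were set beside these steps. Of 18 mitosis markers, 13 rose and none fell, with a median log2 fold change of 1.31. The proliferation marker Mki67 had 119 and 85 counts against 289 and 290, a rise of 1.61 (SE 0.17, adjusted p = 1.04e-09). The other called mitosis genes were Top2a, Ccnb2, Cenpe, Cenpf, Aurka, Plk1, Birc5, Tpx2, Ube2c, Hmmr, Nusap1 and Kif11, and only the call of Aurka was lost when a library was left out (adjusted p = 0.0746 without Il10-EGFP- replicate 1). The 19 replication factors include the Mcm helicase subunits, Pcna, DNA polymerase subunits and Lig1. None was called in the main edgeR fit or with DESeq2, and at an unadjusted p under 0.05 that edgeR fit had 1 higher and 2 lower. Lig1 (higher) and Mcm2 (lower) were called with limma voom and among genes with at least 10 counts in every library (lowest adjusted p = 0.0303 and 0.0312), and Mcm2 also without Il10-EGFP+ replicate 1 (0.0156). Their median log2 fold change was 0.19 and their summed level overlapped, at 6064 and 6473 against 6412 and 6362 CPM. The median of the deoxynucleotide genes, 0.57, thus lay between those of the replication and the mitosis genes, and the difference between the lists was not tested.

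Among 12 tested regulators, members of the MYC and MAX network changed in both directions. Myc, the transcription factor, fell from 27 and 19 counts to 7 and 7 (log2 fold change -1.59, SE 0.49, adjusted p = 0.0465). The call rests on few counts and was lost when any of the 4 libraries was left out. The adjusted p was then 0.292 and 0.0656 for Il10-EGFP- replicates 1 and 2, and 0.140 and 0.198 for Il10-EGFP+ replicates 1 and 2. It was also lost with limma voom (0.0673) and with limma on the rlog values (0.0531), in a range from 0.0428 over the 8 other settings that gave it an adjusted p. Max, the partner of MYC, had 229 and 264 counts against 123 and 154 and fell by 0.73 on the log2 scale (SE 0.16, adjusted p = 0.00286). That call was lost without Il10-EGFP- replicate 2 (adjusted p = 0.0953) or Il10-EGFP+ replicate 1 (0.0534). Mxd1 and Mxd3, which pair with MAX and repress, rose by 1.07 and 1.21, from 26 and 23 to 42 and 54 counts for Mxd1 and from 16 and 17 to 39 and 32 counts for Mxd3.

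Both of these calls depended on single libraries. The adjusted p of Mxd1 was 0.0282, and it reached 0.106 and 0.117 as Il10-EGFP- replicates 1 and 2 were left out in turn, 0.220 for Il10-EGFP+ replicate 2, and 0.269 with DESeq2 (in a range from 0.0215). That of Mxd3 was 0.0384 and reached 0.179, 0.0858, 0.300 and 0.0506 as Il10-EGFP- replicates 1 and 2 and Il10-EGFP+ replicates 1 and 2 were left out. Within each library the ratio of Mxd1 to Max counts was 0.114 and 0.0871 against 0.341 and 0.351. Mxd1 was called higher and Max lower, so this ratio restates those calls. Of the E2F genes, E2f2 rose by 1.03 (adjusted p = 0.00714) and E2f8 by 1.28 (adjusted p = 0.0338), and both calls were lost without Il10-EGFP- replicate 1 (adjusted p = 0.186 and 0.241). E2f2 also lost its call without Il10-EGFP+ replicate 2 (0.136) and with DESeq2 (0.146, in a range from 0.00332), and E2f8 without Il10-EGFP+ replicate 1 (0.434). E2f1, E2f3, E2f4 and E2f7 were not called.

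**Figure D3:**
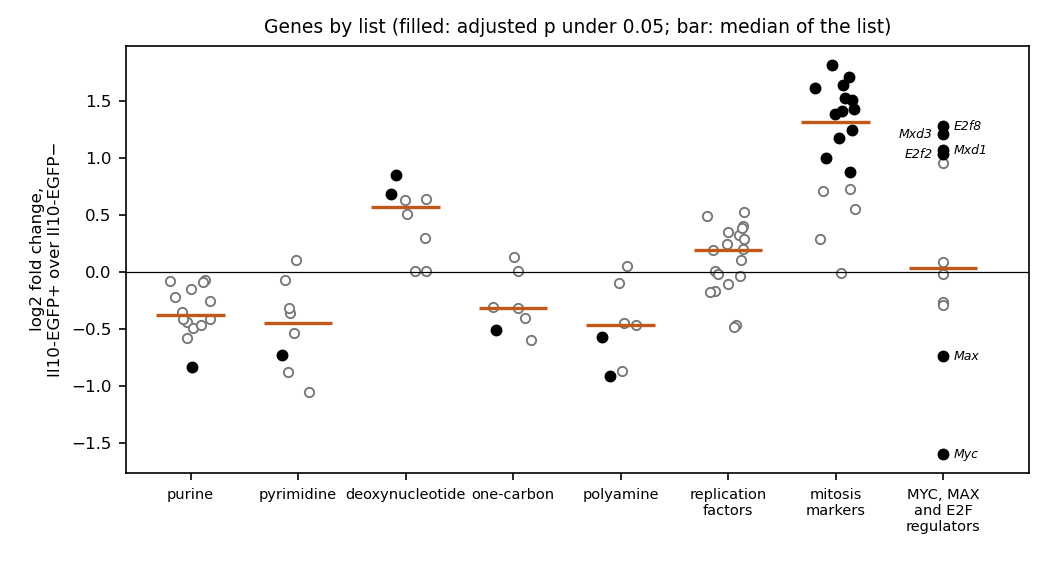
Log2 fold change (y axis), Il10-EGFP+ over Il10-EGFP-, of single genes (points, filled at an adjusted p under 0.05) in the 5 synthesis steps, replication factors, mitosis markers and MYC, MAX and E2F regulators (x axis), with the median of each list as a bar. The medians are 0.57 for the deoxynucleotide, 0.19 for the replication and 1.31 for the mitosis genes, and the other 4 synthesis steps have medians from -0.47 to -0.32.

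Promoter sequence was searched because Myc and Max fell and E2f2 and E2f8 rose. RefSeq windows on GRCm38.p6, from 250 bases before to 50 after each start, were at hand for 40 of the 44 genes, and Srm, Pfas, Dhodh and Azin1 were not among them. The letters CACGTG, the core of the E-box that MYC and MAX bind, were present on either strand (the motif reads the same on both) in 7 of the 40 genes, 17.5 percent, against 12.5 percent of the 7373 tested genes with a window and 8.09 percent of all 27025 genes with one. None of the 6 called genes with a window held them. The 7 genes were Paics, Atic, Impdh2, Nme1, Tyms, Dtymk and Sms. Some are printed below with 10 bases on each side and the motif in capitals, 5′ to 3′ on the strand of the gene, to show where the letters lie in purine, deoxynucleotide and polyamine genes. Distances are counted from the RefSeq start of each window, which can differ from the start in GENCODE M21.
Paics, chr5:76951089-76951114, plus strand, motif 203 bases before the RefSeq start: cctcggaaagCACGTGgagggacctg
Impdh2, chr9:108560316-108560341, plus strand, motif 110 bases before the RefSeq start: gctcgataagCACGTGgttacccagc
Tyms, chr5:30073671-30073696, minus strand, motif 61 bases before the RefSeq start: ccacttctgtCACGTGggggcggggt
Dtymk, chr1:93802067-93802092, minus strand, motif 148 bases before the RefSeq start: ctcgaacttcCACGTGaccagagcct
Sms, chrX:157492468-157492493, minus strand, motif 196 bases before the RefSeq start: cagcggggttCACGTGcatttaaaga

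The stretch of Paics overlaps an annotated exon of Ppat, its head-to-head neighbour, and that of Impdh2 overlaps an annotated exon of Impdh2 itself, after its GENCODE start at 108560286. Of these 5 genes, 3 had log2 fold changes below 0 (Paics, Impdh2 and Sms) and 2 above (Tyms and Dtymk), and none was called. The letters TTTCGCGC or TTTGGCGC, 2 forms of the E2F site, were searched on both strands and were in none of the 40 windows, against 2.18 percent of tested genes. With so low a share, 40 windows are too few to show a difference. Other forms of the site were not searched, so the windows are not shown to lack E2F sites. The letters CCAAT, the core of the NF-Y site, searched on both strands after the other results were seen, were in 17 of the 40 windows (42.5 percent), against 43.4 percent of tested genes, and in 3 of the 6 called genes with a window. The site of Rrm2, the deoxynucleotide gene with the largest difference, and that of Mtap are shown with 10 bases on each side and the motif in capitals.
Rrm2, chr12:24708194-24708218, plus strand, motif 50 bases before the RefSeq start: tcagcggcgtCCAATgggaggcgag
Mtap, chr4:89137343-89137367, plus strand, motif 17 bases before the RefSeq start: aggagaacagCCAATcccgcgctcc

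The stretch of Mtap overlaps an annotated exon of Mtap, after its GENCODE start at 89137122. Each match is a description of letters in a fixed window and does not show a factor bound there. The motif CCAAT was found in Rrm2, which rose, and in Mtap and Mat2a, which fell.

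Of the 7 called genes, Srm and Rrm2 were called under each of the 15 alternative settings, which include each library left out in turn. Their log2 fold changes ranged from -1.11 to -0.74 for Srm and from 0.70 to 0.98 for Rrm2 as libraries were left out, with adjusted p-values of at most 0.00507 and 0.0353. Tk1, Ppat, Mtap, Ctps and Mat2a kept their direction throughout and were not called with DESeq2, which called 1.2 percent of the genes tested (0.76 percent higher and 0.437 percent lower). That share counts all 9608 genes, of which DESeq2 left 5588 without an adjusted p. Gmps, Nme2, Nme4, Odc1 and Amd1 were among those left without one. With the replicate number as a term in the edgeR fit, which called 5.83 percent of the genes tested, Tyms joined the 7 (adjusted p = 0.0412). The direction of the step medians was also kept, with the deoxynucleotide median between 0.49 and 0.55 and the purine median between -0.40 and -0.26 as each library was left out.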

How the data were processed

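The authors sorted the cells, prepared QuantSeq FWD libraries from 5 ng of RNA with 22 PCR cycles, and deposited raw counts per Ensembl gene and rlog values on a log2 scale. The submitters' notes name FastQC, STAR 2.5.2a, HTSeq 0.6.0, DESeq2 and GRCm38. The paper reports that molecular identifiers served to assess PCR duplicates and to remove bias from amplification. Which annotation release and strand option were used is not given in the sources used here, nor whether the deposited counts were collapsed by these identifiers. The methods and the labels name different RNA kits, and a further replicate pair that the authors removed as an outlier was not analysed here.

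Symbols were matched through a table of gene names (419 of 47643 identifiers had none), and coordinates came from GENCODE M21. Genes whose 4 counts summed to at least 10 entered glmQLFit and glmQLFTest of edgeR 4.0.16 under R 4.3.3, with TMM factors. DESeq2 1.42.0, limma 3.58.1, other scalings, other filters, a replicate block and the omission of single libraries were alternatives, and the fit was tested on simulated data. The samples were grouped by their labels. The genes, lists and tests were chosen with earlier results of these data known. Full values are given for called genes and, in each step, for the 2 genes with the most counts and the gene with the largest difference among those with a mean of at least 10 counts.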

Additional observations from a re-analysis of the deposited data

How the results depend on the processing

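No synthesis gene that was called changed direction under any alternative, and 11 genes that were not called did under at least 1. The count of genes called over the whole table was 393, and it was 115 with DESeq2, which left 5588 genes without an adjusted p. DESeq2 called 2 of the 44 synthesis genes (Rrm2 and Srm), 1 higher and 1 lower, where edgeR called 7. The cause was not tested. The median log2 fold change of the 44 genes was -0.13 on the rlog scale, which pulls differences of low counts towards 0 by construction. Among the 60 other pathway genes tested, 3 were called, and 5 were with limma voom, 6 with at least 10 counts in every library and 6 with the replicate block. With 1 library left out in turn, the lone library of a population is assumed to vary like the others. The count was then 212 to 272 over all genes, 2 to 6 for the synthesis genes (1 to 2 higher, 1 to 4 lower), and 1 to 6 for the other pathway genes, and the median of the 44 genes ran from -0.31 to -0.26. The lowest count of synthesis genes, 2, came without Il10-EGFP+ replicate 1. With library size alone as the scaling, 190 of 367 called genes were higher, against 226 of 393.

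Libraries with the same replicate number did not deviate together (correlation 0.035 over 4965 genes), and the main fit did not take the numbers as pairs. This correlation cannot show whether same-numbered libraries came from the same mouse. The paper speaks of a removed replicate pair, so the populations may share mice, and the 4 libraries may not be independent. A replicate block called 560 genes and 8 synthesis genes, adding Tyms (adjusted p = 0.0412, edgeR). Among the other pathway genes it added Ak6 (0.0186), Eif5a (0.00779) and Dohh (0.0453), all lower, and among the replication factors Lig1 (0.00961), higher, and Mcm2 (0.0107), lower. Nme2, Nme4, Odc1, Amd1, Gmps, Dhodh and Cmpk1 had at most 40 counts in any library, with standard errors of 0.31 to 0.98 on the log2 scale.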
